A study of Mus musculus with 16 samples.

Results

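The voltage-gated sodium channel genes described here are Scn1a, Scn3a, Scn8a, Scn9a, Scn2b, Scn3b and Scn4b, which are 7 of the 21878 mRNAs in the count and FPKM tables of this study. FPKM is a read count scaled by gene length and by the total count of the library. The members were found by their symbols, and they were selected on their values in EAE against PBS libraries of these same data, so their values and calls in that contrast are a description and support nothing. All 7 passed the filter of at least 16 counts in total. RNA-seq was run on brain microglia of 8 mice with EAE, a mouse model of multiple sclerosis, and of 8 PBS-treated mice, with 1 library per mouse. All mice were female, wild-type (WT) C57BL/6 animals of 8 weeks of age. EAE was induced with a MOG peptide in complete Freund's adjuvant plus pertussis toxin, the controls received PBS injections on the same schedule, and brains were collected at the peak of disease. The cells were sorted as CD11b+/CD45int after a Percoll gradient.

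A voltage-gated sodium channel consists of a large pore-forming alpha subunit and smaller beta subunits. The alpha subunit opens upon depolarization and carries the inward current that starts an action potential. Beta subunits pass the membrane once, carry an immunoglobulin-like domain outside the cell, and change the gating, surface density and adhesion of the channel. In the brain these channels are best known from neurons, where they gather at the axon initial segment and at nodes of Ranvier. In demyelinated axons of EAE they are known to spread along the fibre, and Nav1.6 has also been described in microglia and macrophages.

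The label of the sorted cells was checked against marker genes, since sodium channel transcripts are abundant in neurons. The summed FPKM of 10 microglial markers (Tmem119, P2ry12, Cx3cr1 and others) was 124.6 to 208.0 in the EAE libraries and 112.7 to 192.3 in the PBS libraries. The summed FPKM of 10 general neuronal markers (Snap25, Syt1, Map2 and others) was 1021 to 1190 in EAE and 1102 to 1218 in PBS. Neuronal marker transcripts were thus far above microglial ones in every library, against the label, and the cells that the sodium channel transcripts came from were not determined. In such bulk libraries, fewer cells of a type and less RNA per cell cannot be told apart. Total counts per library were 24587443 to 30244215 in EAE and 26031889 to 34184576 in PBS. EAE 5 held the lowest value of its group for 5 of the 7 members, and EAE 4 the highest for 4 of them. EAE 6, EAE 7, EAE 8, PBS 5, PBS 7 and PBS 8 were set apart as the 6 libraries most alike. This set was chosen after the data were seen, and no measure of the likeness is given here. Values within this set and within the other 10 libraries are given where a sign or a call changed or the log2FC of a member differed.

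The members lie on 3 chromosomes (GRCm38, GENCODE M21). The alpha subunit genes Scn3a (chr2:65457118-65567627), Scn1a (chr2:66270778-66440840) and Scn9a (chr2:66480080-66634962) stand on the minus strand of chromosome 2, and Scn8a (chr15:100869858-101045938) on the plus strand of chromosome 15. All 3 beta members lie on the plus strand of chromosome 9: Scn3b (chr9:40269217-40291618), Scn2b (chr9:45117782-45130070) and Scn4b (chr9:45138395-45154152). Scn2b ends 8324 bases before Scn4b begins. GENCODE places genes of the opposite strand over Scn1a, Scn3a, Scn2b and Scn3b, and over Scn9a also a processed pseudogene on its own strand, Gm13627. The strand setting of the counting is not given in the sources used here, so reads of such overlapping genes cannot be told apart from those of the members. Scn4b and Scn8a overlap no other annotated gene.

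The promoters of Scn2b and Scn4b are shown because these neighbouring genes of the same family and strand had the highest beta member levels. A link between promoter sequence and level was not tested. Each sequence runs from 250 bases before to 50 bases after the RefSeq start (GRCm38.p6, plus strand, 5′ to 3′), with CpG dinucleotides in capitals. RefSeq promoters were matched for 5 of the 7 members.
Scn2b, chr9:45117626-45117925: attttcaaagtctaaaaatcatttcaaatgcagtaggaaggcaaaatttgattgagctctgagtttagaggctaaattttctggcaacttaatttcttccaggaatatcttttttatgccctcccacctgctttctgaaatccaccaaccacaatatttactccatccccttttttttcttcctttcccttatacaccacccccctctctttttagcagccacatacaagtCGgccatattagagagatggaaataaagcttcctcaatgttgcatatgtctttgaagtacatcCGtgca
Scn4b, chr9:45138374-45138673: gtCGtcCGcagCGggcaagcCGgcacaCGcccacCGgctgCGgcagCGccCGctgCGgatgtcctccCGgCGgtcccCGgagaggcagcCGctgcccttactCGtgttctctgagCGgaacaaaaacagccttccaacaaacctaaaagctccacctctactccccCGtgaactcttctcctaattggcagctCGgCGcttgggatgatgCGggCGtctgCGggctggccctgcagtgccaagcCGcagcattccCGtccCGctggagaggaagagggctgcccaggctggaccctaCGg

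The 2 promoters differ in base composition. The Scn2b promoter holds 2 CpGs in 300 bases at a GC content of 38.3%, and 14.1% of the 32851 mouse promoters of this length hold fewer. The Scn4b promoter holds 26 CpGs at a GC content of 66.3%, and 83.1% of promoters hold fewer. Motifs were searched on both strands. The CCAAT box (CCAAT or ATTGG) was found 1 time in the Scn4b promoter and 0 times in that of Scn2b, against 37.4% of all promoters with at least 1. The letters of the GC box (GGGCGG or CCGCCC, in 35.7% of promoters), the TATA box (TATAAA or TTTATA, in 13.6%), the E-box CACGTG (in 7.15%) and the CRE TGACGTCA (in 1.79%) are in neither window.

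Scn4b, which encodes the beta4 subunit known for resurgent sodium current in Purkinje cells and striatal neurons, was the member that stood furthest from its control level. In FPKM, the PBS libraries 1 to 8 held 47.3, 53.1, 46.0, 47.5, 49.98, 45.3, 51.8 and 49.7. The EAE libraries 1 to 8 held 36.0, 37.8, 40.7, 36.2, 32.0, 40.8, 40.9 and 40.9. All 8 EAE libraries lay below all 8 PBS libraries, with EAE 5 lowest and a gap between 40.9 in EAE 7 and 45.3 in PBS 6. The mean was 38.2 ± 3.29 FPKM (SD, n = 8) in EAE and 48.8 ± 2.78 (SD, n = 8) in PBS. The raw counts of Scn4b were 3990 to 4774 in the EAE group and 5221 to 7517 in the PBS group. On TMM-normalized counts the log2FC of EAE over PBS was -0.41 (SE 0.056), a change of -24.5%. Of all genes tested, 0.101% had FPKM values of every EAE library below every PBS library, and Scn4b was the only one of the 7 members among them. The log2FC was -0.33 (SE 0.033) within the 6 libraries most alike and -0.46 (SE 0.073) within the other 10.

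**Figure D1:**
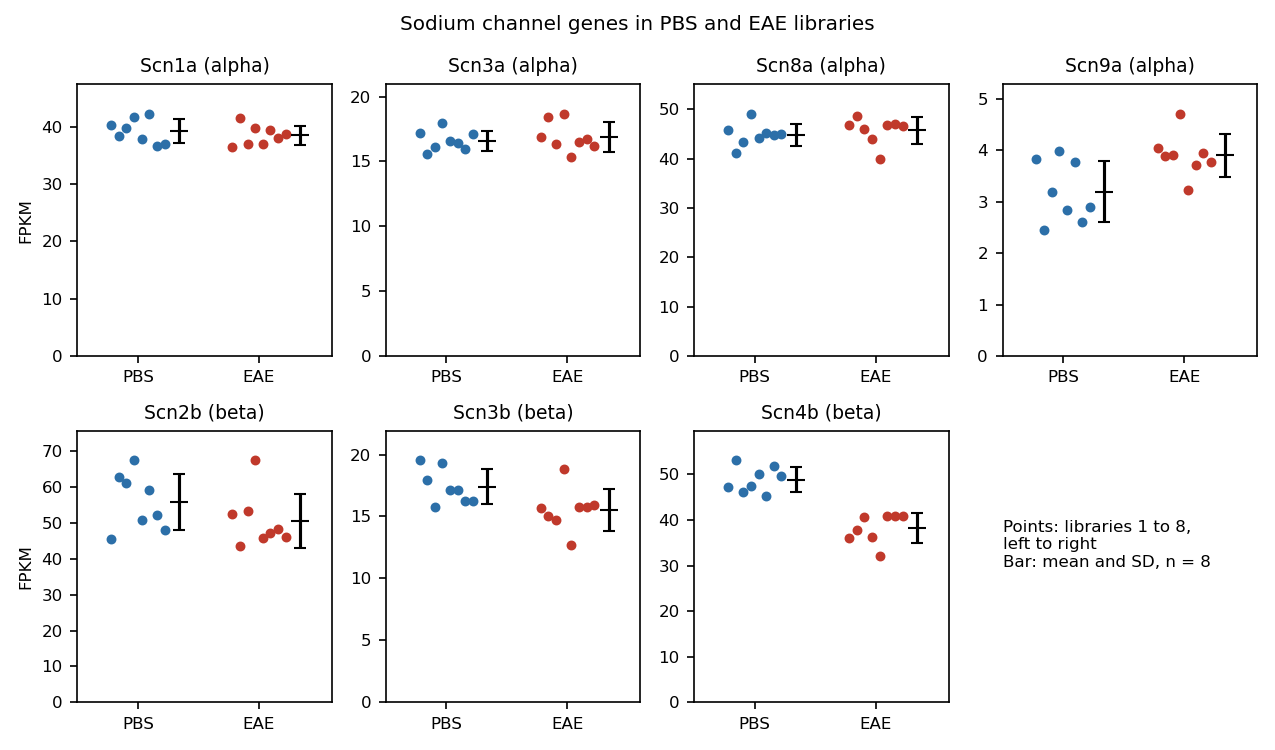
FPKM of the 7 sodium channel members in each library, PBS (blue) and EAE (red), with the mean and SD of 8 libraries beside them; each panel has its own axis from 0. Scn4b is the only panel in which the groups do not overlap, and EAE 4 is the high point of Scn2b at 67.4 FPKM.

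The other beta members had smaller differences and overlapping groups. Scn2b encodes a beta subunit that is joined to the alpha subunit by a disulfide bond. Its FPKM was 45.4 to 67.3 (median 55.6) in PBS and 43.6 to 67.4 (median 47.6) in EAE. EAE 4 stood apart at 67.4, while the other 7 EAE libraries were at 53.4 or below. The log2FC of Scn2b was -0.20 (SE 0.091), -0.26 without EAE 4, -0.12 (SE 0.035) within the 6 libraries most alike and -0.24 (SE 0.12) within the other 10. Scn3b, whose subunit binds the alpha subunit without such a bond, had 15.8 to 19.6 FPKM (median 17.1) in PBS and 12.7 to 18.8 (median 15.7) in EAE. In 6 of 8 EAE libraries Scn3b was below the lowest PBS library, and EAE 4 was again the highest of its group. Its log2FC was -0.21 (SE 0.065), with -0.09 (SE 0.038) within the 6 libraries most alike and -0.29 (SE 0.092) within the other 10.

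The alpha subunit members were close to their control levels, apart from Scn9a. Scn8a encodes Nav1.6, the main channel of mature nodes and of the distal axon initial segment, and had 41.2 to 49.1 FPKM (median 44.9) in PBS and 40.0 to 48.6 (median 46.7) in EAE. Scn1a encodes Nav1.1, prominent in fast-spiking inhibitory neurons, and had 36.7 to 42.3 FPKM (median 39.1) in PBS and 36.5 to 41.5 (median 38.5) in EAE. Scn3a encodes Nav1.3, which is strongest before birth, and had 15.6 to 17.97 FPKM (median 16.5) in PBS and 15.3 to 18.7 (median 16.6) in EAE. For these 3 genes the groups covered nearly the same range. Their log2FC was -0.02 (SE 0.044) for Scn8a, -0.08 (SE 0.042) for Scn1a and -0.03 (SE 0.044) for Scn3a. On the FPKM scale, which divides by total counts without TMM factors, the mean difference in log2(FPKM + 0.1) was 0.03 for Scn8a and 0.02 for Scn3a, so the sign of these 2 genes depends on the scaling. It also turned for Scn8a and Scn1a within the 6 libraries most alike, to 0.04 and 0.03, against -0.06 and -0.15 within the other 10.

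Scn9a, which encodes Nav1.7, best known from pain-sensing peripheral neurons, was the only member with a log2FC over 0 on TMM-normalized counts. Its level was low, at 2.45 to 3.98 FPKM (median 3.05) in PBS and 3.23 to 4.72 (median 3.89) in EAE. EAE 4 held the highest value and EAE 5 the lowest of the EAE group, and 6 of 8 EAE libraries lay within the PBS range. The log2FC was 0.24 (SE 0.095), a difference of 18%. It was 0.43 (SE 0.065) within the 6 libraries most alike and 0.13 within the other 10. Because of the pseudogene and the antisense genes over this locus, the counts of Scn9a are less certain than those of the other members.

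By the quasi-likelihood test of edgeR, with p adjusted by Benjamini-Hochberg over 17885 genes, 1 of the 7 members, Scn4b, was lower at an adjusted p under 0.05, beside 1.76% of all genes tested. The number that was higher was 0 of 7, beside 0.66% of all genes. The thresholds of a DEmRNA, which add a |log2FC| over 1, were met by 0 of 7 members, beside 0.117% of all genes. At an unadjusted p under 0.05, 3 members were lower and 1 was higher, beside 1702 and 1416 of the 17885 genes. DESeq2 put 2 members lower and 0 higher, beside 611 and 299 of these genes. The members were selected on this contrast, so these counts describe them and no more. The median log2FC was -0.21 over the 3 beta members and -0.02 over the 4 alpha members, against 0.0092 over all genes tested.

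A further 5 voltage-gated sodium channel genes of the table, all alpha subunits, were set beside the members, and 0 of the 5 passed the test. Scn2a1, listed as Scn2a in the annotation and encoding Nav1.2, had 66.6 to 82.0 FPKM in EAE and 67.2 to 86.1 in PBS, with a log2FC of -0.09 (SE 0.057, edgeR adjusted p = 0.420).

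The other 4 were at or below 1.68 FPKM in every library. The sodium-sensing channel gene Scn7a had a log2FC of 0.04 (edgeR adjusted p = 0.877). Scn10a and Scn11a, known from sensory neurons, had at most 137 and 35 counts in any library, and the skeletal muscle gene Scn4a had 0 to 11. Differences of the size seen for Scn4b were not detectable in Scn10a, Scn11a and Scn4a at this depth, with SEs of 0.30, 0.37 and 0.66 on the log2 scale. Over the 12 genes described, 3 of 3 beta and 6 of 9 alpha subunit genes had a log2FC below 0, as did 47.3% of all genes tested.

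**Figure D2:**
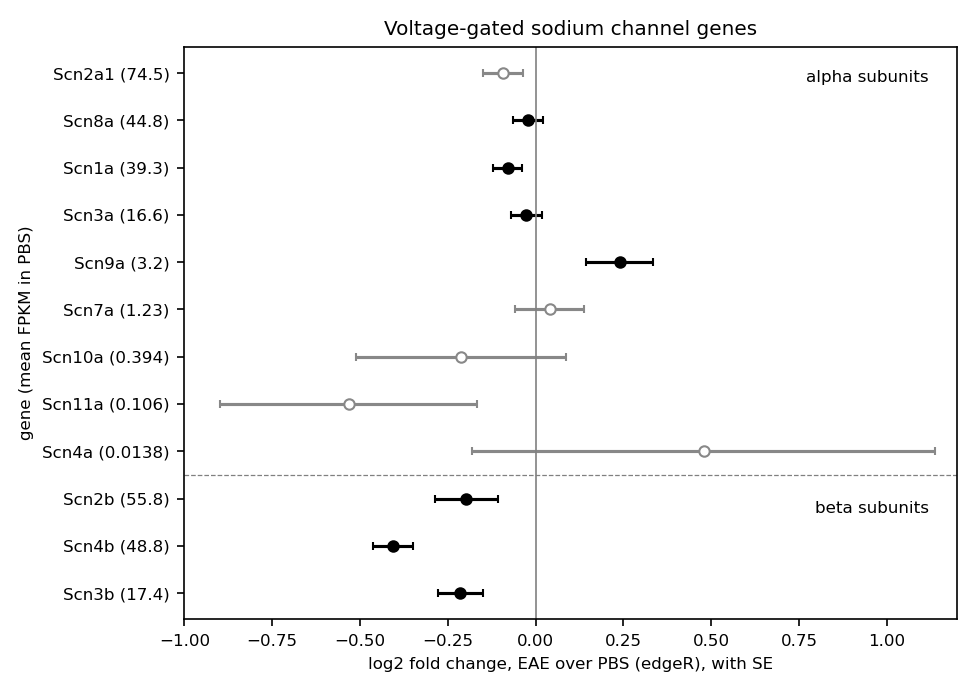
The log2FC of EAE over PBS with its SE from edgeR for 12 voltage-gated sodium channel genes, alpha subunits above and beta subunits below the dashed line, each ordered by mean FPKM in PBS; filled points are the 7 members. The 3 beta subunit genes lie between -0.41 and -0.20, and the weakly expressed Scn10a, Scn11a and Scn4a have the widest errors.

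The summed FPKM of these 12 genes was 258 to 314 in EAE and 287 to 335 in PBS. Scn4b made up 11.5% to 14.5% of this sum in EAE and 14.2% to 17.9% in PBS. Among the 3 beta members, its share was 36.8% ± 3.48 (SD, n = 8) in EAE and 40.1% ± 3.11 (SD, n = 8) in PBS. The summed FPKM of the 3 beta members over that of the 4 alpha members was 0.992 ± 0.082 in EAE and 1.18 ± 0.094 in PBS (SD, n = 8 each), and 6 of 8 EAE libraries lay below the lowest PBS library. The ratio of Scn4b to Scn8a separated the groups in all 8 EAE libraries, at 0.834 ± 0.048 in EAE and 1.09 ± 0.10 in PBS. The ratio of Scn4b to Scn2b overlapped, with 3 of 8 EAE libraries below the lowest PBS library. These ratios were chosen after the values were seen.

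The order of the members' levels within the PBS libraries does not use the contrast between the groups, and it was tested with an exact sign-flip permutation test, two-sided, on paired differences in log2(FPKM + 0.1). FPKM is per length, so levels of different genes can be set side by side as far as the gene lengths used are right. The test sees only the spread between libraries, since an error in a length is the same in every library. Scn2b was the highest at a mean of 55.8 FPKM, followed by Scn4b (48.8), Scn8a (44.8), Scn1a (39.3), Scn3b (17.4), Scn3a (16.6) and Scn9a (3.2). With 8 libraries the smallest p this test allows is 0.00781. Over the 6 neighbouring pairs, with Benjamini-Hochberg adjustment, Scn8a exceeded Scn1a by 0.19 on the log2 scale in 8 of 8 libraries (exact p = 0.00781, adjusted p = 0.0156). Scn1a exceeded Scn3b by 1.17 and Scn3a exceeded Scn9a by 2.36, each in 8 of 8 libraries with the same exact p and adjusted p. The other neighbours did not differ beyond the spread between libraries by the adjusted p. They were Scn2b and Scn4b (difference 0.18, SD 0.23, exact p = 0.102, adjusted p = 0.117), Scn4b and Scn8a (0.12, SD 0.13, exact p = 0.0391, adjusted p = 0.0587), and Scn3b and Scn3a (0.06, SD 0.097, exact p = 0.117, adjusted p = 0.117).

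In the EAE libraries Scn4b stood lower in this order. The members were selected on their values in EAE against PBS, so the change of order and the p-values within EAE are a description and support nothing. Scn2b (50.5 FPKM) was followed by Scn8a (45.7), Scn1a (38.5), Scn4b (38.2), Scn3a (16.9), Scn3b (15.6) and Scn9a (3.90). Scn1a and Scn4b differed by 0.02 on the log2 scale, with Scn1a higher in 4 of 8 libraries (exact permutation test, p = 0.703, adjusted p = 0.703). Scn3a was above Scn3b in 7 of 8 EAE libraries by 0.12 (exact p = 0.0156, adjusted p = 0.0234). Among the 12 genes described, Scn4b ranked 3 by mean level in PBS and 5 in EAE.

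Whether members varied together among mice of the same group was examined after each group's mean was subtracted from log2(CPM + 0.5), over 16 libraries and 21 pairs, with a permutation test within groups. Scn3a and Scn9a were the only pair below an adjusted p of 0.05, with Pearson's r = 0.654 (permutation p = 0.0021, adjusted p = 0.0441) and Spearman's rho = 0.656 (permutation p = 0.0084, adjusted p = 0.176). Without the 2 libraries furthest from the median of Scn3a the r was 0.419, and with the set of 6 libraries also centred it was 0.719. Scn3a and Scn3b, on different chromosomes, had a higher r of 0.672 without passing (permutation p = 0.0097, adjusted p = 0.0679). For Scn4b, r ranged from -0.298 with Scn9a to 0.393 with Scn8a, and no pair with Scn4b passed (permutation test, lowest adjusted p = 0.298). For both of these pairs the sign of r differed between the groups. With Scn8a it was 0.794 within EAE and -0.401 within PBS, and with Scn9a 0.28 within EAE and -0.851 within PBS. The r values within single groups were not tested.

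The genes whose levels followed each member most closely were taken from the same centred values, by Pearson's r over 16 libraries among 14759 genes with a mean CPM of at least 1. They are given with no test, since they are the highest of many. For Scn4b they were Nsf (r = 0.950), Spock2 (0.947), Ndrg4 (0.886), Cstf2t (0.886) and Tom1l2 (0.884). Of these 5, Spock2 and Ndrg4 were lower in EAE, with a log2FC of -0.23 (edgeR adjusted p = 0.0325) and -0.22 (edgeR adjusted p = 0.0232). For Scn2b they were Clcn3 (0.963) and Cdh10 (0.946), and for Scn3b Creg2 (0.917) and Elovl4 (0.915). For the alpha subunit members they were Fv1 (0.868) and Syt14 (0.863) for Scn1a, Ms4a6d (0.945) and Galnt18 (0.934) for Scn3a, Phf24 (0.940) and Pnma2 (0.936) for Scn8a, and Lime1 (0.946) and Nsun7 (0.943) for Scn9a. The points share library, depth and cell content, and the source of the likeness was not tested.

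Genes that act beside the channels were taken from lists. These lists were chosen with earlier results of these data known, so their counts are a description. Of 10 genes of the sodium pump and sodium leak channel, 2 fell and 0 rose by the quasi-likelihood test of edgeR, Benjamini-Hochberg adjusted. Atp1b1, a regulatory subunit of the pump that expels sodium, had 206 to 345 FPKM in EAE and 330 to 401 in PBS, and 7 of 8 EAE libraries lay below the PBS range. Its log2FC was -0.42 (SE 0.073, edgeR adjusted p = 0.00624), and the fall was kept in 16 of 16 fits that left out 1 library. Atp1b2, the glial regulatory subunit, had a log2FC of -0.19 (adjusted p = 0.0439) that passed in 4 of 16 such fits, where the adjusted p ranged from 0.00561 to 0.102. It was kept only without EAE 4, EAE 5, PBS 1 or PBS 4. The leak channel gene Nalcn, named for its role after its value was seen, had a log2FC of -0.14 (edgeR adjusted p = 0.228).

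Among 15 genes of the axon initial segment and the node of Ranvier, 1 fell and 0 rose. Cntn1, an adhesion molecule of paranodal junctions that also binds sodium channels, had 41.6 to 55.6 FPKM in EAE and 48.7 to 56.6 in PBS, with a log2FC of -0.24 (SE 0.056, edgeR adjusted p = 0.0281). It passed in 10 of 16 fits that left out 1 library, and it was lost without EAE 1, 2, 3, 6 or 8 or PBS 2, with the adjusted p between 0.00104 and 0.0666. Other genes of the initial segment did not pass: the spectrin gene Sptan1 had a log2FC of -0.07 (edgeR adjusted p = 0.439) and the ankyrin-G gene Ank3, named for its role after its value was seen, 0.0044 (edgeR adjusted p = 0.973). Of the 4 fibroblast growth factor homologous factors, which bind the tail of the alpha subunit, 0 passed. The most abundant of them were Fgf13 (log2FC -0.15, edgeR adjusted p = 0.199) and Fgf14 (0.22, edgeR adjusted p = 0.201). Of 8 genes of the secretases that cleave beta subunits, 0 passed, and all 8 had a log2FC below 0. The most abundant were Ncstn (-0.07, edgeR adjusted p = 0.455) and Psenen (-0.08, edgeR adjusted p = 0.551), and the beta-secretase gene Bace1, named in the same way, had -0.20 (edgeR adjusted p = 0.111). Atp1b1, Atp1b2 and Cntn1 all passed within the 6 libraries most alike and not within the other 10, where their log2FC was below 0 at edgeR adjusted p = 0.112, 0.384 and 0.218. Over the 42 genes of these lists, with the 5 further sodium channel genes included, 3 fell and 0 rose, beside 1.76% and 0.66% of all genes tested.

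**Figure D3:**
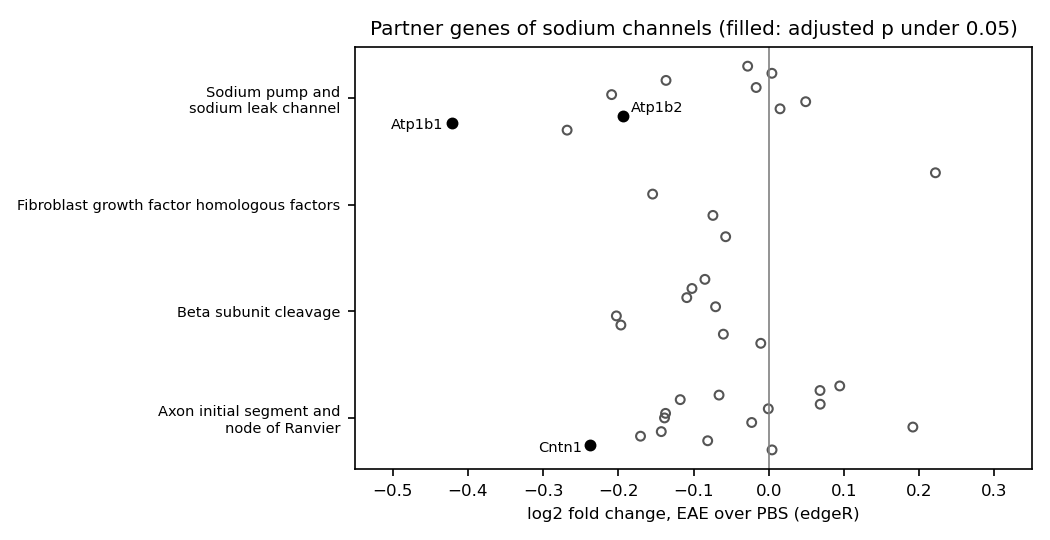
The log2FC of EAE over PBS for each gene of the 4 lists of partner genes, with filled and named points for those at an edgeR adjusted p under 0.05. The 3 filled points are Atp1b1, Atp1b2 and Cntn1, and all lie between -0.42 and -0.19.

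Markers of 5 classes of neurons were read beside Scn4b, and some of those of striatal and inhibitory neurons fell. The marker lists were also chosen with earlier results known, and their counts stand beside 1.76% of all genes lower and 0.66% higher. Of 11 markers of striatal projection neurons, 2 fell and 0 rose, Ppp1r1b (log2FC -0.31, edgeR adjusted p = 0.0113) and Adora2a (-0.50, edgeR adjusted p = 0.00839). The summed FPKM of these 11 markers was 195.0 to 269.1 in EAE and 264.1 to 304.0 in PBS, with 7 of 8 EAE libraries below the lowest PBS library. EAE 5 was the lowest library of both this sum and Scn4b. It was also the lowest for the inhibitory (163.8) and general neuronal (1021) sums, and the highest for the astrocyte (1677) and oligodendrocyte (1283) sums. For the cortical and hippocampal sum and the Purkinje cell sum it was not the lowest. Of 8 markers of inhibitory neurons, not all limited to interneurons, 2 fell and 0 rose, Gad1 (-0.53, edgeR adjusted p = 0.00309) and Slc32a1 (-0.47, edgeR adjusted p = 0.00233). The others did not pass, among them Sst (-0.31, edgeR adjusted p = 0.228), Vip (-0.36, edgeR adjusted p = 0.342) and Lhx6 (0.13, edgeR adjusted p = 0.431). The log2FC was below 0 for 7 of the 8. The summed FPKM of the 8 was 163.8 to 244.7 in EAE and 239.4 to 295.7 in PBS. Ppp1r1b, Adora2a, Gad1 and Slc32a1 passed within the 6 libraries most alike and not within the other 10, where the log2FC kept its sign (edgeR adjusted p from 0.09 to 0.126). Of 9 markers of cortical and hippocampal excitatory neurons, 0 passed, with sums of 968.8 to 1150 and 1034 to 1153. Of 8 Purkinje cell markers 0 passed, with sums of 152.3 to 167.0 and 155.7 to 184.3. Among them Ppp1r17 was at 0 in some libraries, while Pcp2 had 1.72 to 3.56 FPKM in EAE and 1.24 to 4.01 in PBS. Of 9 markers of thalamus and brainstem neurons, 8 could be tested and 0 passed, with sums of 41.31 to 48.72 and 42.15 to 49.80, and Hoxa5 and Hoxb5 held zero counts.

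**Figure D4:**
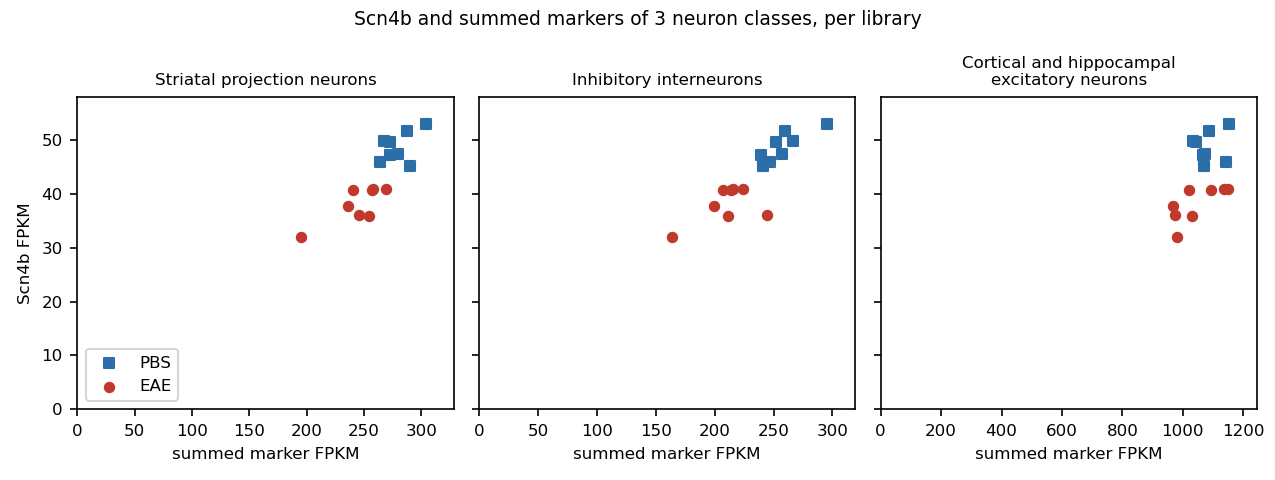
Scn4b FPKM against the summed FPKM of 11 striatal, 8 inhibitory and 9 cortical and hippocampal markers, 1 point per library, PBS as blue squares and EAE as red circles, axes from 0. Scn4b separates the groups, while the sums overlap between the groups, least for the striatal and inhibitory markers and most for the cortical ones.

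Scn4b was then divided by these sums in each library, an alternative chosen after the values were seen. Per 100 summed FPKM of general neuronal markers, Scn4b was 3.46 ± 0.32 in EAE and 4.19 ± 0.24 in PBS (SD, n = 8 each), a log2 difference of -0.28 (SE 0.056), with 7 of 8 EAE libraries below the PBS range. Divided by the cortical and hippocampal sum, in which Camk2a had the largest part, the log2 difference was -0.30 (SE 0.046) and all 8 EAE libraries lay below the PBS range. Divided by the striatal sum it was -0.16 (SE 0.041), with 3 of 8 EAE libraries below that range. Divided by the sum of inhibitory markers it was -0.06 (SE 0.052), with 2 of 8 below. The sum of Purkinje cell markers was mostly Itpr1, at a mean of 117.4 FPKM over 16 libraries. Divided by this sum, the log2 difference of Scn4b was -0.31 (SE 0.070), with 7 of 8 below. Over the sum of the called striatal markers alone, Ppp1r1b and Adora2a, the difference was -0.08 (SE 0.052), with 1 of 8 below. Over Gad1 and Slc32a1 the sign turned, at 0.08 (SE 0.061), with 0 of 8 below. The genes of both pairs were taken because they fell in this same contrast, so a smaller or turned difference was built in. The striatal and inhibitory sums hold these genes too. The part of the cell makeup of the libraries in the lower level of Scn4b was not tested.

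Glial and blood cell markers were read in the same way, beside the same shares of all genes, 1.76% lower and 0.66% higher. Microglial markers gave 0 of 10 calls, while 8 had a log2FC over 0 and 2 below, with a median of 0.16. Their summed FPKM had a median of 179.1 in EAE and 136.7 in PBS. Scn4b per 100 summed microglial FPKM was 24.0 ± 6.33 in EAE and 35.4 ± 5.63 in PBS (SD, n = 8 each), with 5 of 8 EAE libraries below the PBS range. This ratio thus holds a higher microglial sum in EAE as well as the lower Scn4b. Of 8 oligodendrocyte markers 0 passed, with sums of 912.4 to 1283 in EAE and 1002 to 1228 in PBS. Of 7 astrocyte markers 1 rose, Gfap, with a log2FC of 0.50 (edgeR adjusted p = 0.0312, called in 8 of 16 fits that left out 1 library, from 0.0189 to 0.0720) with -0.05 within the 6 libraries most alike (edgeR adjusted p = 0.419) and 0.87 within the other 10 (edgeR adjusted p = 0.00196). It was lost without EAE 1, 2, 3 or 8 or PBS 1, 2, 3 or 6. The other 6 astrocyte markers had a log2FC below 0 without passing, and the median over the 7 was -0.20. The summed astrocyte FPKM was 1105 to 1677 in EAE and 1277 to 1516 in PBS. Of 8 neutrophil markers 4 rose, S100a8, S100a9, Ngp and Ltf, with sums of 23.27 to 64.41 in EAE and 9.455 to 24.17 in PBS, and these 4 genes kept their sign within the other 10 libraries without passing (edgeR adjusted p from 0.114 to 0.187). Syt1 was the only general neuronal marker of 10 that passed, with a log2FC of -0.28 (edgeR adjusted p = 0.0326), and it was lost without EAE 1, 2 or 3 or PBS 2, 3, 5 or 7, and within the other 10 libraries (-0.36, edgeR adjusted p = 0.159). The part of these cells in the members' values was not tested.

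Scn4b was lower in EAE under every processing setting that was run. Its log2FC lay between -0.46 and -0.33, with limma on log2(FPKM + 0.1) at -0.36 (SE 0.053) and on log2(FPKM + 1) at -0.35 (SE 0.051).

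**Figure D5:**
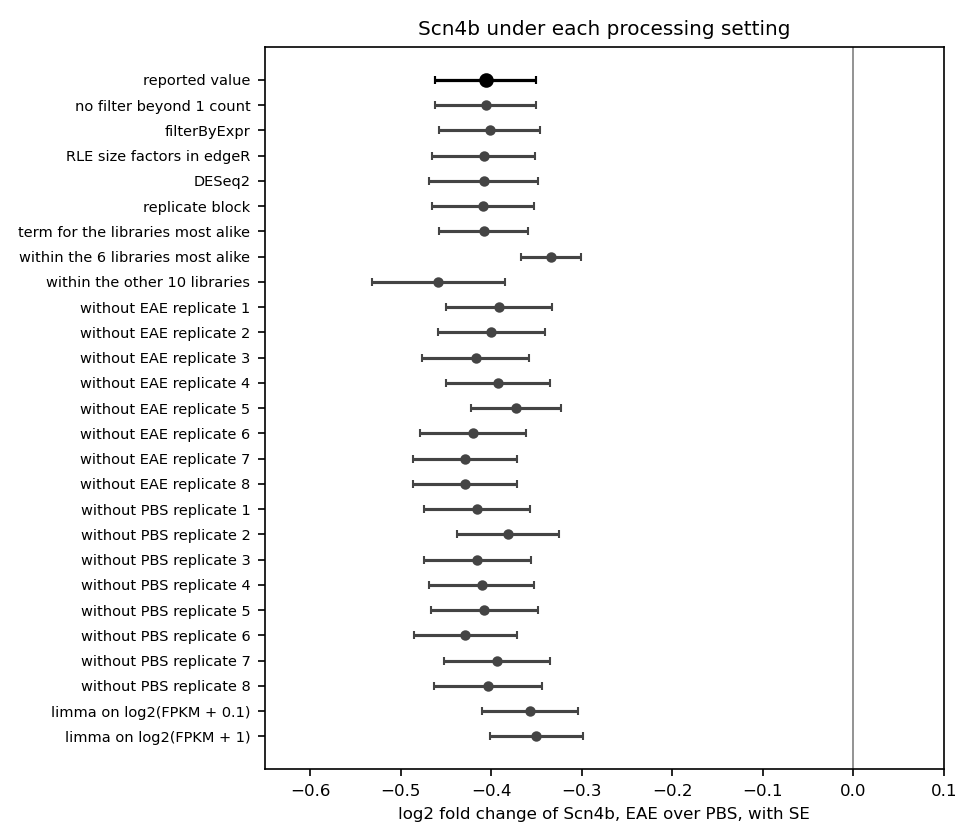
The log2FC of Scn4b in EAE over PBS with its SE under each processing setting, the reported value on top. All points lie between -0.46 and -0.33, with the 6 libraries most alike nearest to 0 and the other 10 furthest from it.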

How the data were processed

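Stranded, rRNA-depleted total RNA libraries were prepared from sorted microglia, 1 per mouse. The authors aligned filtered reads to GRCm38 with HISAT2 2.1.0, counted them with HTSeq 0.11.2 and deposited raw counts per gene. The deposited FPKM values are the counts divided by the library total and gene length, with no further normalization. The study names RefSeq as the source of its annotation, while the release and the strand setting of the counting are not given in the sources used here. Submitters' notes also name DESeq2 1.22.2, and 0 columns of sample values were not used. In the labels the last MOG residue rises from 55 in EAE 1 to 62 in EAE 8, while the protocol gives 35-55.

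Here, genes with at least 16 counts over 16 libraries (17885) were fitted with edgeR 4.0.16 in R 4.3.3 (TMM, quasi-likelihood F test, condition only, two-sided, Benjamini-Hochberg adjustment over all genes). The SE is |log2FC| over the root of F. The model was tested on count tables drawn with known differences, where 64.0% of 200 genes at a log2FC of 0.5 were recovered among 17772 tested and 7.9% of the calls were false. Alternatives were no filter, filterByExpr, RLE factors, DESeq2 1.42.0, limma 3.58.1 on FPKM, a replicate block and each library left out. The 16 mice are the replicates. The members, partner lists and marker lists were chosen with earlier results of these data known. Genes named are the members, other Scn genes, list genes past the threshold with the 2 most abundant of each partner list, and the 5 (Scn4b) or 2 (others) genes of the highest r. Some genes of the lists and of the family are not reported here, and counts, sums and ranks in the report leave them out.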

Additional observations from a re-analysis of the deposited data

Results flagged for a closer look

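Scn2b in EAE 4 was at 67.4 FPKM, apart from the other 7 EAE libraries at 43.6 to 53.4. The gap to the nearest library was 0.591 of the range of the group, above Dixon's 95% critical value for 8 samples. For the 7 members, 14 groups of 8 libraries were searched in this way, and chance alone marks about 1 in 20 groups. In EAE 4 the summed FPKM of general neuronal markers was 1190, the highest of the EAE group, and that of neutrophil markers was 23.3, the lowest of that group. Its sums of microglial (208.0) and inhibitory (244.7) markers were also the highest of that group. Those of striatal and of cortical and hippocampal markers were not. PBS 4 held the highest Scn2b of its group at 67.3 FPKM, and its gap was 0.209 of the range. Like EAE 4, PBS 4 held the highest value of its group for 4 of the 7 members.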

How the results depend on the processing

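The members were selected on this contrast, so the direction and calls given for them here are a description and support nothing. Scn4b was lower in EAE in all 26 alternatives, with a log2FC of -0.43 to -0.37 when each library was left out. The members' log2FC with 1 library left out ranged from -0.09 to -0.06 for Scn1a, -0.26 to -0.15 for Scn2b, -0.05 to -0.0069 for Scn3a, -0.25 to -0.18 for Scn3b, -0.0355 to 0.00436 for Scn8a and 0.20 to 0.29 for Scn9a. Without EAE 4, Scn2b was at -0.26 and Scn3b at -0.25, and the count of members that were lower ranged from 1 to 3 and that of members that were higher stayed at 0. Counted over the full partner lists, 6 genes fell and 0 rose with all libraries, and with 1 library left out the genes that fell ranged from 3 to 13, the latter without EAE 4, and those that rose from 0 to 1. Without EAE 1, 2, 3, 6 or 8 or PBS 2 the number that fell dropped from 6 to 3. In the order of levels within PBS, 3 to 4 neighbouring pairs differed.

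With DESeq2, 2 members were lower, Scn3b at a log2FC of -0.22 being the second. The replicate numbers did not pair the mice: libraries of the same number in the 2 groups correlated at -0.235 to 0.581, and 2 of 8 EAE libraries correlated best with their own number. With the replicate block, 2 members were lower, with Scn3b at -0.22 and Scn4b at -0.41, and 367 genes were lower and 150 higher in all. The following settings were chosen after seeing the data. Within the 6 libraries most alike, 2 members were lower and 1 was higher, 11 partner genes fell and 5 rose, and the values were -0.12 for Scn2b, 0.43 for Scn9a, and with the sign turned 0.0301 for Scn1a and 0.0391 for Scn8a. Within the other 10 libraries 1 partner gene fell. On the FPKM scale the sign turned for Scn8a (0.0274 with a pseudocount of 0.1 and 0.0269 with 1) and Scn3a (0.0226 and 0.0215). The cause was not tested for any of these changes. Over all genes, DESeq2 put 611 lower and 299 higher, limma on log2(FPKM + 0.1) 73 lower and 132 higher, leaving out 1 library 104 to 815 lower and 39 to 502 higher, the highest counts without EAE 4, and the sets of 6 and 10 libraries 2251 and 5 lower and 1896 and 8 higher.

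The depth limits Scn10a, Scn11a and Scn4a, at 137 counts or fewer per library. Each group holds 8 mice from 1 series, and no RNA quality values per library were used.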
